A study of Mus musculus with 4 samples.

Results

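Transcripts of 8 transcription factors that set the B cell and plasma cell states were followed in leukocytes sorted from mouse tumors. The factors were Pax5, Ebf1, Bach2, Spib, Prdm1, Irf4, Xbp1 and Ikzf3, which are 8 of the 33696 genes in the deposited matrices, and they were chosen by name. Their unique molecular identifiers (UMIs, 1 for each captured transcript) were counted in B cells and plasma cells, and against other cells of the same libraries. A kept cell was taken as a plasma cell when it held a UMI of Mzb1 or Derl3, which act in the endoplasmic reticulum of antibody-secreting cells, and at least 20 UMIs of heavy-chain constant genes. It was taken as a B cell when it held UMIs of both Ms4a1 (CD20) and Cd79a and was not a plasma cell. None of the 8 factors entered these rules.

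The tumors grew from a KPC pancreatic cancer line, which carries a mutant Trp53 allele switched on by Pdx1-Cre, placed under the skin of C57BL/6NHsd mice of 8 to 10 weeks. The 4 groups were untreated mice, mice whose tumors were injected on day 0 with ADU-S100, a STING agonist, mice that received the agonistic antibody 4H8 to the lymphotoxin-β receptor 4 times into the peritoneum (anti-LTβR), and mice that received both agents (combination). On day 14, 10 tumors per group were pooled, live CD45+ cells were sorted, and 1 library was made per group with a 10x Genomics 5′ kit. There was thus no replicate of a treatment, and intervals on treatment ratios cover counting error only, not differences between mice, tumors or libraries. The study describes 2 such experiments, of which the other was not analysed here.

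Mature B cells and plasma cells run opposed gene programs. PAX5, EBF1, BACH2 and SPIB hold the B cell program in place, and BLIMP1, the product of Prdm1, shuts it down in antibody-secreting cells. IRF4 acts in both states according to its dose, XBP1 drives the secretory machinery of plasma cells, and IKZF3 (Aiolos) is an Ikaros family factor that B, T and NK cells also use.

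The deposited matrices held between 8730 and 16322 cells and between 52109958 and 85855398 UMIs. In the order untreated, ADU-S100, anti-LTβR and combination, which all sets of 4 values below follow, 7516, 13441, 13225 and 14666 cells were kept, among them 3, 3, 77 and 101 B cells and 56, 45, 318 and 534 plasma cells. Any pair of libraries shared between 34 and 83 cell barcodes, at most 0.539% of the smaller library. The B cell values of the untreated and ADU-S100 libraries thus rest on 3 cells each. Levels are given as CPM, the UMIs of a gene scaled to a common total of UMIs per cell group, after removal of 390 immunoglobulin genes, because these took 42.4 to 48.5% of all UMIs in plasma cells and 0.663 to 1.75% in B cells. Median UMIs per cell without these genes were 3167, 3830, 3317 and 1988 in B cells and 9033, 10676, 6618 and 3635.5 in plasma cells, so the combination library was the shallowest in both.

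The cell rules were checked against other markers. Jchain, which joins antibody chains into polymers, was detected in 92.9, 100, 89.9 and 94.6% of plasma cells, and Sdc1 (CD138), the classical surface marker, in 58.9, 66.7, 62.3 and 48.9%. Outside plasma cells Jchain was detected in 3.40, 1.55, 9.80 and 12.0% of cells that also lacked Ms4a1, and in 5.19 and 14.9% of the anti-LTβR and combination B cells. Among the plasma cells 13, 7, 92 and 103 also held an Ms4a1 UMI, and they are shown apart wherever they change a value. Lyz2, a myeloid transcript, was found in 25.0 to 32.2% of plasma cells and 53.8 to 61.7% of the remaining cells, and Cd3e in at most 3.57% of plasma cells; the part of such carried RNA or of doublets in the levels below was not tested.

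The 4 factors of the B cell side are shown first by their promoters, because they moved together between the 2 cell states. The 250 bases before the RefSeq start (GRCm38.p6) were searched on both strands for CCCNNGGG (EBF), GGAA followed after any 2 bases by GAAA (an ETS-IRF composite), GAAAGTG (PRDM1), CCACGT (XBP1) and TGAGTCA (BACH), and capitals mark matches. The sequences are given 5′ to 3′ on the strand of the gene, with Pax5 at chr4:44710695-44710944 (minus strand), Ebf1 at chr11:44619978-44620227 (plus), Bach2 at chr4:32417185-32417434 (plus) and Spib at chr7:44532072-44532321 (minus).
Pax5: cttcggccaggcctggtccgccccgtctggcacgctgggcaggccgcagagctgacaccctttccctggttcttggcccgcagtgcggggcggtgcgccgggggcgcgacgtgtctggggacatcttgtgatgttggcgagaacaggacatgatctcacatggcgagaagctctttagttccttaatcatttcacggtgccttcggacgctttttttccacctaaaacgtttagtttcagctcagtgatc
Ebf1: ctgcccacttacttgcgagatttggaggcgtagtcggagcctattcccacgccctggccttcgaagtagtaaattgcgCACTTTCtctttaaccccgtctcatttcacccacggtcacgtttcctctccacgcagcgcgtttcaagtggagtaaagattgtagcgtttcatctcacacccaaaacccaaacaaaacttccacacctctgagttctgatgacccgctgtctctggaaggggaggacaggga
Bach2: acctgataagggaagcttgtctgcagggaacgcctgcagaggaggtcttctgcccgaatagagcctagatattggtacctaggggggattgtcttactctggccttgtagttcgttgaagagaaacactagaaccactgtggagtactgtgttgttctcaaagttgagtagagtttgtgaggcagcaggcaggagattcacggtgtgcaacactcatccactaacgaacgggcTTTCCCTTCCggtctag
Spib: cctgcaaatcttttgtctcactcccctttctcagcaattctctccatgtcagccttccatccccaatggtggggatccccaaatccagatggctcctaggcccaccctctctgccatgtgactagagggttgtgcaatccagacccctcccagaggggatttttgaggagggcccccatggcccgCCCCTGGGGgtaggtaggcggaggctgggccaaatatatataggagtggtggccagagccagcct
The window of Ebf1, the second of its 2 entries, held a PRDM1 motif on the minus strand from 172 to 166 bases before the start. That of Bach2 held the ETS-IRF composite on the minus strand from 17 to 8 bases before the start, and that of Spib held 2 overlapping EBF motifs between 65 and 57 bases before it. The Pax5 window held no match, and neither did those of Prdm1, Irf4 and Xbp1 or the first Ebf1 entry, while Ikzf3 was not in the table used. Of all 32851 promoters of the same length, 11.8% held the EBF motif, 2.30% the composite, 4.01% the PRDM1 motif, 6.91% the XBP1 motif and 4.46% the BACH motif. A match describes letters only and is no evidence of binding.

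Pax5, which fixes B cell identity, was abundant in B cells and nearly absent from most plasma cells. In B cells it stood at 974 CPM (95% exact Poisson interval 532 to 1634), 882 (469.5 to 1508), 805 (701 to 919) and 937 (817 to 1069). In plasma cells it stood at 16.6 CPM, at 0 with a limit of 5.98 from 3 counts, at 90.8 and at 31.4 CPM. The groups did not overlap, and the lowest B cell level was above the highest plasma cell level. Pax5 was detected in 81.8 and 81.2% of B cells in the anti-LTβR and combination libraries, against 10.1 and 4.12% of plasma cells. With B cells taken by an Ms4a1 UMI alone (13, 12, 107 and 133 cells), it was detected in 23.1, 33.3, 66.4 and 72.2%. No CD8 T cell held a Pax5 UMI, which allows at most 1.07, 2.76, 1.15 and 1.83 CPM.

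Ebf1, which opens chromatin for the B cell program, had 10, 33, 569 and 531 UMIs in B cells, or 695 CPM, 2238 CPM, 2111 CPM and 2261 CPM. The untreated value rests on 10 UMIs and its interval reaches 1279 CPM, so it lay below the intervals of the other libraries. In plasma cells Ebf1 stood at 219.5 CPM (180 to 265.5), 149.6 (118 to 187.5), 259.8 (239 to 282) and 262.6 (242 to 285). CD8 T cells held 0, 1.84, 0.764 and 1.83 CPM of Ebf1. Plasma cells therefore kept a level under that of B cells in every library and far above that of T cells, with detection in 48.2, 60.0, 43.4 and 29.96% of plasma cells against at most 0.952% of CD8 T cells (median of 4766, 4576.5, 3656 and 2111 UMIs per cell).

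Bach2, a repressor that holds off plasma cell differentiation, stood at 139 CPM from 2 UMIs, 2103 CPM, 994 CPM and 1222 CPM in B cells. It stood at 64.2, 51.8, 69.4 and 88.3 CPM in plasma cells. The plasma cell values were close together, whereas the untreated B cell value, with an interval of 16.8 to 502 CPM, could not be told from them. Bach2 was also the only factor of the 8 with less RNA in plasma cells than in the other cells of every library, where it stood at 159, 150, 206 and 210 CPM.

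Spib, an ETS factor used by B cells and plasmacytoid dendritic cells, stood at 139 CPM from 2 UMIs, 271 CPM from 4 UMIs, 208 CPM and 311 CPM in B cells. In plasma cells it stood at 8.28 CPM, at 0 with a limit of 5.98 CPM, at 22.7 CPM and at 8.65 CPM. Every B cell value was above every plasma cell value, but the untreated B cell interval (16.8 to 502 CPM) could not be told from the untreated and anti-LTβR plasma cell values (2.26 to 21.2 and 16.9 to 29.8 CPM). Detection was low even in B cells, at 40.3% and 44.6% in the anti-LTβR and combination libraries.

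On the plasma cell side, Prdm1 stood at 425, 481, 470 and 420 CPM in plasma cells. B cells of the untreated and ADU-S100 libraries held 0 UMIs, which allows up to 209 and 203.5 CPM, and those of the anti-LTβR and combination libraries 51.9 and 55.4 CPM. The 4 plasma cell libraries lay within a narrow range, above every B cell value. Prdm1 was detected in 73.2, 91.1, 77.4 and 65.0% of plasma cells.

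Irf4 stood at 886, 536, 828 and 702 CPM in plasma cells and at 278, 339, 197 and 179 CPM in B cells. The ADU-S100 plasma cells were the lowest of the 4 yet stood above all B cell values. The first pair of B cell values rests on 4 and 5 UMIs. Their intervals (75.8 to 712 and 110 to 792 CPM) contain the ADU-S100 and combination plasma cell values (536 and 702 CPM).

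Xbp1 stood at 2152, 2445, 2556 and 2480 CPM in plasma cells, where 94.6, 95.6, 89.3 and 92.1% of cells held a UMI. In B cells it stood at 69.5 CPM from 1 UMI, at 0 with a limit of 203.5 CPM, at 55.6 CPM and at 85.2 CPM. Groups were far apart in every library.

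Ikzf3 stood at 278, 407, 534 and 579 CPM in B cells and at 82.8, 102, 220 and 165 CPM in plasma cells. The lowest B cell value was above the highest plasma cell value, but its interval (75.8 to 712 CPM, from 4 UMIs) spans all plasma cell values.

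**Figure D1:**
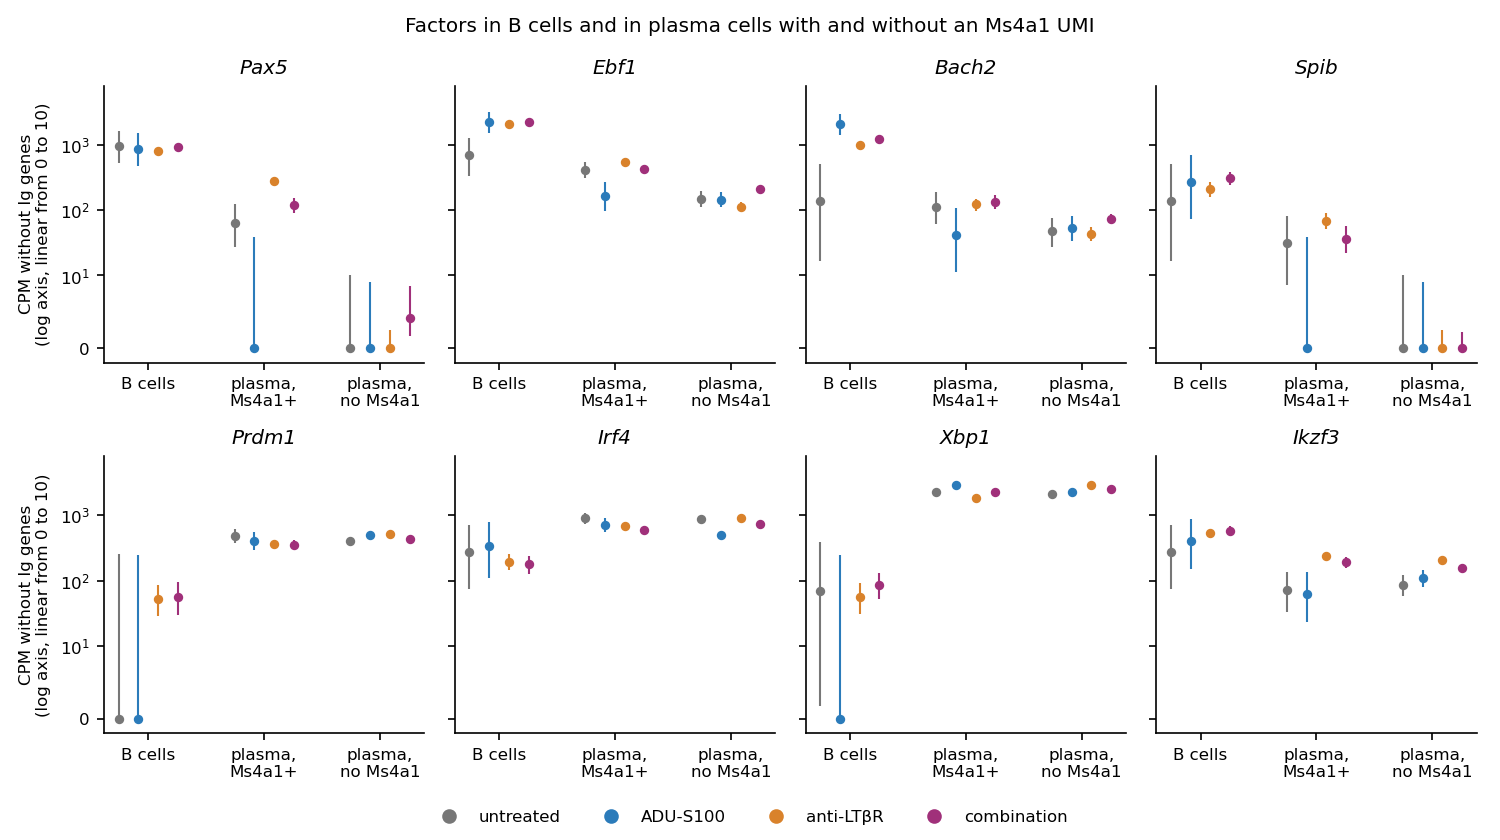
Level of each factor (CPM without immunoglobulin genes, log axis that is linear from 0 to 10) in B cells and in plasma cells with and without an Ms4a1 UMI, 1 point per library, with 95% exact Poisson intervals for counting error. Pax5, Ebf1, Bach2, Spib and Ikzf3 sit higher in B cells and Prdm1, Irf4 and Xbp1 higher in plasma cells, Pax5 and Spib are at or near 0 in plasma cells without Ms4a1, and the wide B cell bars of untreated and ADU-S100 come from 3 cells each.

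The contrast of plasma cells with B cells was tested over the 4 libraries, since each holds both kinds of cell. In edgeR's quasi-likelihood test with a library term, all 8 factors passed at a Benjamini-Hochberg adjusted p under 0.05, with 3 higher and 5 lower in plasma cells. Of the 5250 genes tested, 21.5% were called higher and 12.6% lower. With library totals in place of TMM factors the split turned from 1128 higher and 660 lower genes to 731 higher and 1243 lower, and the median log2 change of all genes moved from 0.15 to -0.25, while the 8 factors kept their directions. Xbp1 was higher by 5.61 on the log2 scale (SE 0.31), Prdm1 by 3.56 (SE 0.34) and Irf4 by 2.21 (SE 0.27). Pax5 fell by 4.19 (SE 0.32), Spib by 3.86 (SE 0.36), Bach2 by 3.51 (SE 0.28), Ebf1 by 2.64 (SE 0.24) and Ikzf3 by 1.23 (SE 0.26), the last with the largest adjusted p of the 8 (5.14e-05, edgeR). With the combination library left out, the adjusted p of Ikzf3 was 0.061. With B cells taken by an Ms4a1 UMI alone, Ikzf3 fell by 0.74 and its adjusted p was 0.0539, so its call was lost. In a fit to the anti-LTβR and combination libraries alone, chosen after seeing the data, the log2 changes of Pax5 and Ikzf3 were -3.48 and -1.08.

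When the plasma cells with an Ms4a1 UMI were left out, the log2 change of Ebf1 went to -3.08, Bach2 to -3.73, Prdm1 to 3.84, Irf4 to 2.43, Xbp1 to 5.88 and Ikzf3 to -1.12. Pax5 then had 0, 0, 0 and 7 UMIs in plasma cells, the 7 in 1 combination cell, and Spib had 0 in all 4 libraries, so the fitted changes of these factors are no measure of size and are not given.

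Against the other cells of the libraries, which had no Ms4a1 UMI and were not plasma cells, B cells were higher in 6 factors and lower in 2. These other cells still included 56, 24, 138 and 389 cells of clusters named as B or plasma cells, with 3, 2, 95 and 129 of their 6, 3, 104 and 159 Pax5 UMIs. Of 14028 genes tested 5.13% were called higher and 24.3% lower. This split depended on the scaling: 720 genes higher and 3414 lower became 1439 and 1970 without TMM factors, 769 and 2190 with TMM factors over all genes, and 978 and 2555 with immunoglobulin genes kept. The median log2 change of all genes was -0.63, and -0.14 without TMM factors. Pax5 was higher by 8.79 on the log2 scale (SE 0.34), Ebf1 by 6.81 (SE 0.33), Spib by 6.26 (SE 0.26), Ikzf3 by 2.78 (SE 0.26), Irf4 by 2.44 (SE 0.27) and Bach2 by 2.01 (SE 0.27). Xbp1 fell by 1.93 (SE 0.34) and Prdm1 by 1.72 (SE 0.34), with the largest adjusted p of the 8 at 7.18e-06 for Prdm1 in edgeR. Directions were the same under every scaling. With the cells of those clusters left out, a setting added after seeing the data, Pax5 was higher by 11.4 and Ebf1 by 7.87, and the other 6 changes lay between -1.88 and 6.32 with the same directions. Without the combination library the adjusted p of Prdm1 was 0.069.

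Plasma cells against the same other cells were higher in 7 factors and lower in Bach2 only. Of 14650 genes tested 22.9% were called higher and 37.3% lower, so calls were common in this contrast. Irf4 was higher by 5.08 on the log2 scale (SE 0.15), Ebf1 by 4.30 (SE 0.18), Xbp1 by 3.81 (SE 0.12) and Prdm1 by 2.01 (SE 0.12). Pax5 was higher by 4.66 (SE 0.41), Spib by 2.30 (SE 0.39) and Ikzf3 by 1.58 (SE 0.20), whereas Bach2 fell by 1.39 (SE 0.14). The largest adjusted p of the 8 was 2.03e-05, for Spib (edgeR). With cells of the B and plasma clusters left out of the other cells, Pax5 was higher by 7.22 and Ebf1 by 5.29, and all 8 directions were the same. Under a stricter plasma cell rule of at least 50 heavy-chain UMIs, a Jchain UMI and no Siglech UMI, Spib had 0 UMIs in all 4 libraries and Pax5 0, 0, 0 and 4 UMIs, so higher levels of these factors in plasma cells were not measured, while Ebf1 still stood at 164, 149, 120 and 129 CPM.

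The wider programs moved with the factors. Of 17 tested genes of the B cell program, 12 were lower in plasma cells than in B cells, against 12.6% of all genes tested, among them Cd22 (-4.33 on the log2 scale, SE 0.31), an inhibitory receptor, and Cxcr5 (-3.52, SE 0.33), the receptor for the follicle chemokine CXCL13. Cd24a (1.56, SE 0.28) and Blnk (0.92, SE 0.24), a B cell receptor adaptor, were higher in plasma cells. The median of the list was -2.54 against 0.15 over all genes tested. Of 24 tested genes of the plasma cell program 23 were higher in plasma cells, against 21.5% of all genes, with a median of 3.87, led by Jchain (8.43, SE 0.40), Eaf2 (6.58, SE 0.42) and Trp53inp1 (5.91, SE 0.33). Tnfrsf17 (BCMA), a survival receptor of plasma cells, had 0 UMIs in B cells of all 4 libraries and 390 in plasma cells, so it was at least 12.8-fold higher by a floor of 3 counts over the group, and the median was 3.71 with it at that bound. Both lists share genes with the marker lists of these cell types and were chosen with earlier results known, so their counts describe the cells.

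Other factors of the B lineage split. Of 19 tested, 4 were higher in plasma cells than in B cells and 9 lower, with a median of -0.31. Over all genes 21.5% were higher, which is near the share of these factors, and 12.6% lower. The 3 largest rises were in Ern1 (4.36, SE 0.38), whose product IRE1 splices Xbp1 RNA, Atf6 (2.20, SE 0.25), a sensor of unfolded protein, and Pou2af1 (1.91, SE 0.25), the OCT coactivator OBF1. Bcl11a (-4.11, SE 0.36), Myc (-2.21, SE 0.32) and Ets1 (-1.74, SE 0.26) showed the 3 largest falls. Against other cells, where 5.13% of all genes were higher and 24.3% lower in B cells and 22.9% higher and 37.3% lower in plasma cells, 10 of 24 such factors were higher and 8 lower in B cells, and 10 were higher and 12 lower in plasma cells. Among the 8 lower in B cells, Ikzf2 and Ikzf4 had 0 UMIs in B cells of all 4 libraries, so by a floor of 3 counts over the group they were at least 20.9-fold and 1.3-fold lower. The largest rises in plasma cells were those of Pou2af1 (6.81, SE 0.31), Mef2c (3.06, SE 0.14) and Atf6 (2.53, SE 0.12). Of the B cell program 14 of 17 tested genes were higher and none lower in B cells than in other cells, and 14 of 19 were higher and 5 lower in plasma cells. Of the plasma cell program 2 of 23 were higher and 9 lower in B cells, and 23 of 24 were higher in plasma cells, with Cd93 lower (-0.63, SE 0.16). The same shares over all genes apply to these counts.

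Set against every cell class, each of the 8 factors had its highest median level in B cells or plasma cells. No share of all genes that peak in these cells was computed. Classes other than B and plasma cells came from clusters named by markers, with unnamed clusters (2049, 4458, 4384 and 5142 cells) as 1 further class. Cells of the B and plasma clusters outside the rules were left out. B cells were read only in the 2 libraries with at least 20 of them, and the levels are a description. Pax5 was at 805 to 937 CPM in B cells, 0 to 90.8 in plasma cells and at most 8.24 in any other class, reached by plasmacytoid dendritic cells of the anti-LTβR library. For Ebf1 the order was B cells (2111 to 2261 CPM), plasma cells (150 to 263) and non-leukocytes (31.7 to 281), and the ranges of the last pair overlapped, while 1 untreated cell held 237 of the 379 Ebf1 UMIs behind the highest non-leukocyte value. Spib ran from B cells (208 to 311 CPM) through plasmacytoid dendritic cells (117 to 210), whose range touched that of B cells, to mature dendritic cells (28.1 to 61.6). Bach2 was not particular to B cells, since their 994 to 1222 CPM were followed by NK cells at 759 to 854 CPM, T cells outside the named T cell classes at 494 to 796 CPM and CD4 T cells at 281 to 595 CPM. The ranges of these 3 classes overlapped from one to the next, and CD8 T cells (201 to 568 CPM) came after them.

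For Prdm1, plasma cells (420 to 481 CPM) were followed by regulatory T cells (169 to 243 CPM), and these ranges did not overlap. Irf4 went from plasma cells (536 to 886 CPM) to B cells (179 to 197) and CD4 T cells (90.2 to 147), with no overlap between neighbors. Xbp1 was at 2152 to 2556 CPM in plasma cells and 333 to 489 CPM in neutrophils, the next class. Ikzf3 showed no such gap. B cells at 534 to 579 CPM overlapped with regulatory T cells (309 to 538 CPM), CD8 T cells (255 to 535) and other T cells (367 to 556), and plasma cells at 82.8 to 220 CPM lay below NK cells (317 to 463).

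**Figure D2:**
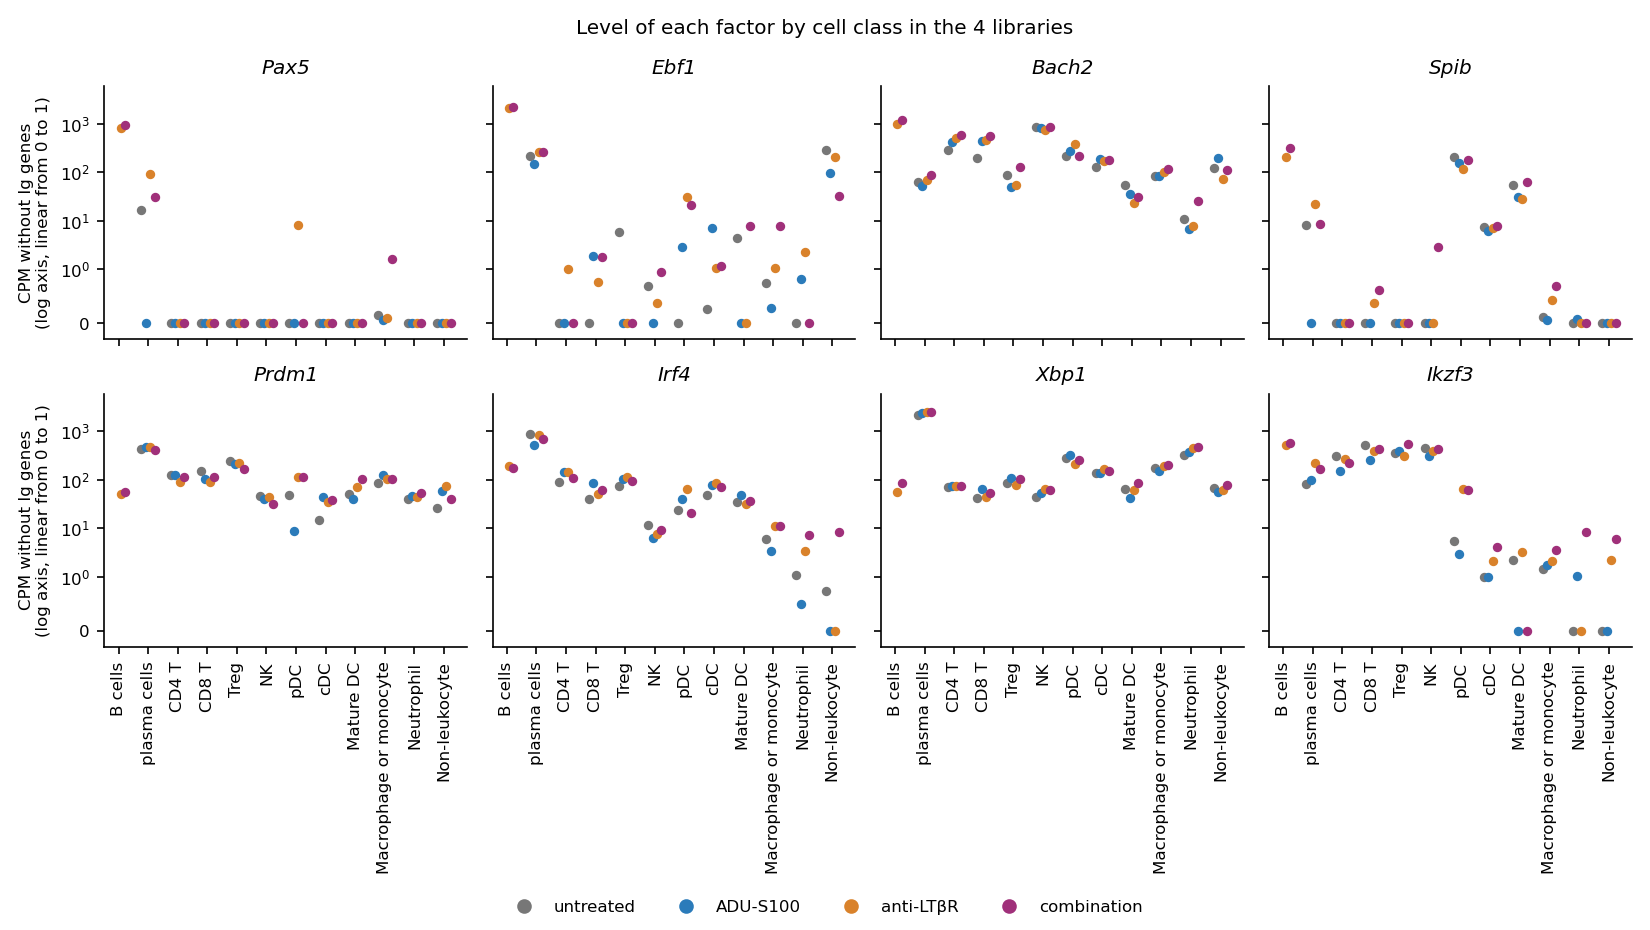
Level of each factor (CPM without immunoglobulin genes, log axis that is linear from 0 to 1) in the named cell classes, 1 point per library with at least 20 cells of the class. B cells or plasma cells hold the highest median level of all 8 factors, by a wide gap for Pax5 and Xbp1 and with overlap with T cell classes for Ikzf3.

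B and plasma cells were few, and their share of a factor's UMIs in the sorted cells differed between factors and libraries. Plasma cells were 0.745, 0.335, 2.40 and 3.64% of kept cells and held 31.9, 24.0, 54.2 and 53.2% of all Irf4 UMIs. They held 13.8, 9.04, 36.0 and 40.6% of Xbp1 UMIs and 4.73, 2.87, 13.5 and 15.6% of Prdm1 UMIs, of which macrophages or monocytes held 36.8, 25.7, 27.4 and 28.6%. Unnamed clusters, with 2049, 4458, 4384 and 5142 cells, held more. Over the 4 libraries they had 11685 of the 26477 Prdm1 UMIs, against 7594 in macrophages or monocytes. Most Prdm1 UMIs of the sorted cells thus lay outside plasma cells. About as many Irf4 UMIs lay inside as outside plasma cells in the last pair of libraries. B cells held 37.0 and 45.6% of Pax5 UMIs in the anti-LTβR and combination libraries. Of Ebf1, non-leukocytes that escaped the sort held 62.7% in the untreated library and 2.43% in the combination library, so a level over all sorted cells mixes sources. A single untreated cell held 237 of the 604 Ebf1 UMIs, and without the cell richest in Ebf1 in each library, a setting added after seeing the data, these shares were 38.7 and 2.54%. Spib shifted in the same way, as plasmacytoid dendritic cells held 46.1, 54.1, 23.5 and 8.95% of its UMIs and B cells 1.20, 4.08, 23.0 and 38.4%.

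**Figure D3:**
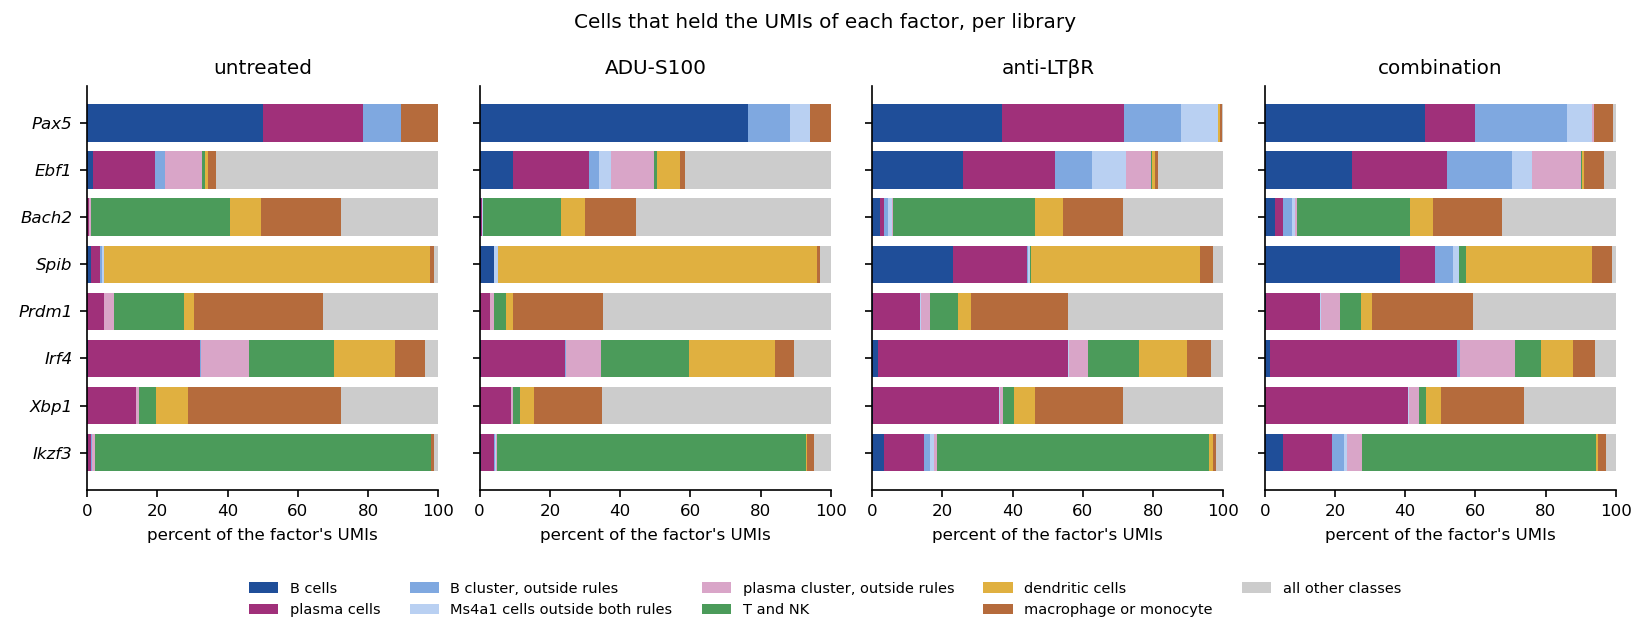
Share of each factor's UMIs in kept cells (percent) that lay in each cell group, as stacked bars with 1 panel per library. Plasma cells hold 53.2 to 54.2% of Irf4 UMIs in the anti-LTβR and combination libraries, and at most 15.6% of Prdm1 UMIs in any library.

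Plasma cells were not uniform, and the amount of heavy-chain RNA in a cell separated them. Cells with 20 to 99 heavy-chain UMIs numbered 37 in the anti-LTβR library, of which 33 held Ms4a1, and 51 in the combination library, of which 19 did. All 204 Pax5 UMIs of anti-LTβR plasma cells and 65 of the 69 of combination plasma cells lay in these cells. All 51 and 19 Spib UMIs lay there as well. In the same cells Xbp1 stood at 120 and 445 CPM, against 1735 and 2014 CPM in cells with 100 or more but fewer than 1000 heavy-chain UMIs and 2917 and 2817 CPM in cells with 1000 or more. By RNA content the cells at the lower edge of the plasma cell rule thus resembled B cells in the anti-LTβR library more than in the combination library. Prdm1 in the 3 ranges was 155, 473 and 504 CPM in the anti-LTβR library and 369, 424 and 423 CPM in the combination library.

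Ebf1 behaved differently from Pax5. In cells with 1000 or more heavy-chain UMIs, Pax5 and Spib had 0 UMIs in all 4 libraries, which allows at most 8.08, 6.76, 1.64 and 1.96 CPM. Ebf1 stood in those cells at 167 CPM (128 to 214), 156 (121 to 197), 109 (94.5 to 125) and 133 (115 to 153). It was detected in 55.6, 66.7, 37.1 and 34.5% of these cells, and no single cell held more than 10.1% of the UMIs. Non-leukocytes, the class next to plasma cells in Ebf1 level, had it in 5.61 to 9.87% of their cells. Cells richest in antibody RNA therefore still carried Ebf1 RNA but no measured Pax5 RNA. Bach2 remained as well, at 27.0, 51.9, 33.3 and 49.5 CPM, below its 201 to 568 CPM in CD8 T cells and, in 3 of the 4 libraries, below the lowest level in regulatory T cells (50.3 CPM). Whether reads in introns were counted is not given in the sources used here, so mature and unspliced Ebf1 RNA cannot be told apart.

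**Figure D4:**
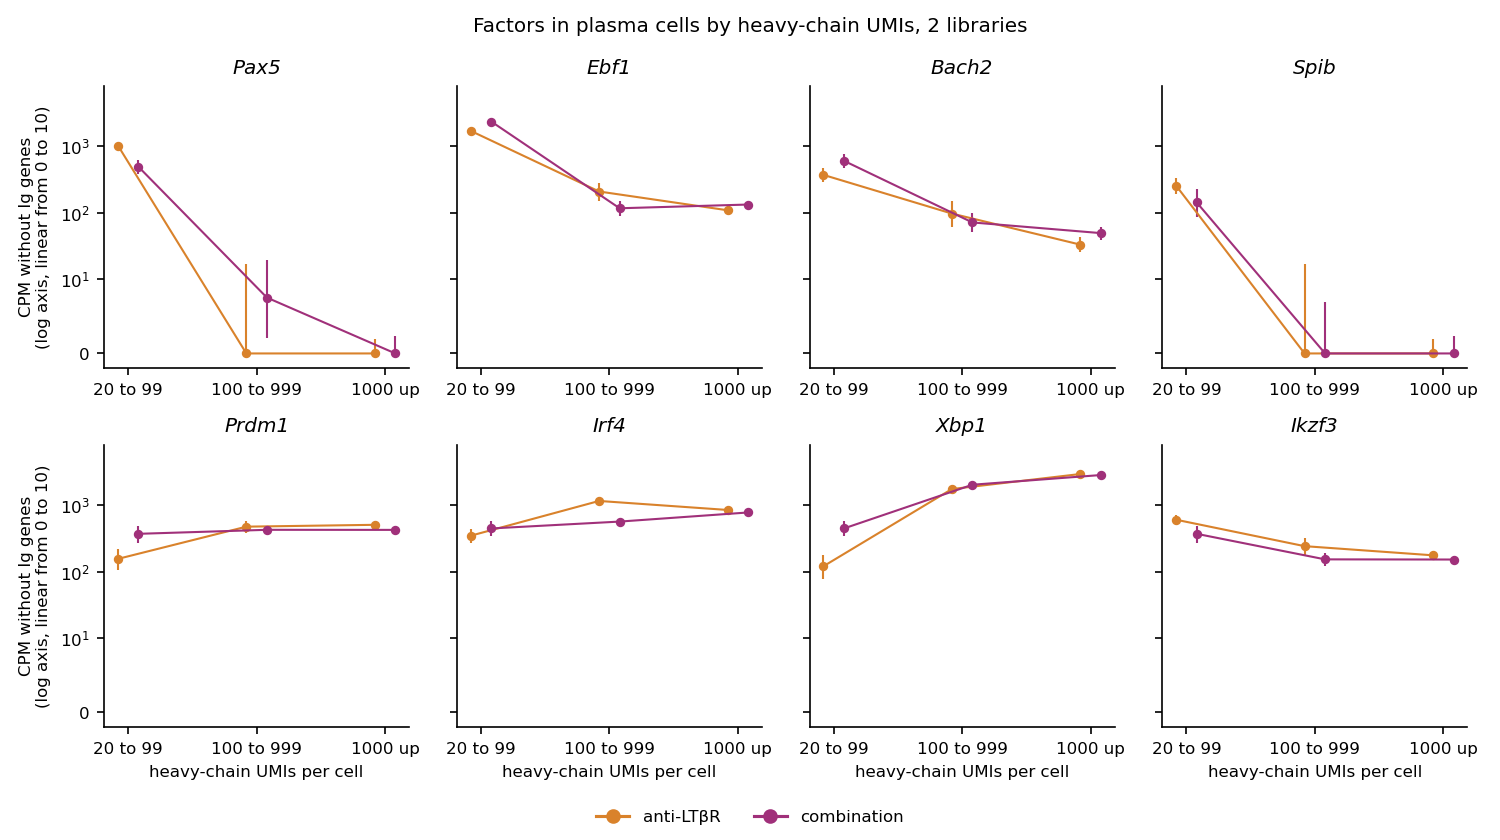
Level of each factor (CPM without immunoglobulin genes, log axis that is linear from 0 to 10) in plasma cells of the anti-LTβR and combination libraries in 3 ranges of heavy-chain UMIs per cell, with 95% exact Poisson intervals. Pax5 and Spib fall to 0 or nearly 0 from 100 heavy-chain UMIs upward, Ebf1 drops to between 109 and 209 CPM, with a further fall from 209 to 109 CPM in the anti-LTβR library, and Xbp1 climbs.

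Since nearly all Pax5 UMIs of anti-LTβR and combination plasma cells lay in the cells with 20 to 99 heavy-chain UMIs, a split by Pax5 is not independent of the split above. The 32 anti-LTβR plasma cells with a Pax5 UMI held Xbp1 at 22.1 CPM, Prdm1 at 93.7 CPM and Ebf1 at 1836 CPM, and the 286 without one held 2778, 503 and 121 CPM. In the combination library the 22 cells with Pax5 held 88.4, 88.4 and 1668 CPM of these factors, and the 512 without held 2583, 434 and 202 CPM. Both Pax5 and Prdm1 UMIs were found in 1, 0, 9 and 3 plasma cells, and in 8 of 77 and 4 of 101 B cells in the anti-LTβR and combination libraries. Only 9 and 6 of these B cells held a Prdm1 UMI, so most of those also held Pax5, as did most B cells. A UMI of any of Pax5, Ebf1, Bach2 or Spib together with one of Prdm1, Irf4 or Xbp1 was present in 62.5, 66.7, 46.5 and 38.4% of plasma cells. It was present in 23.3, 18.1, 21.6 and 15.4% of other cells. With Ebf1 left out, the shares were 21.4, 31.1, 20.8 and 16.1% of plasma cells and 22.9, 18.0, 21.0 and 14.7% of other cells. After each cell was thinned to 1000 UMIs, which left 53, 45, 314 and 500 plasma cells, the shares with Ebf1 were 24.5, 15.6, 13.1 and 15.4%. Those without Ebf1 were then 0, 2.22, 4.78 and 5.0% of plasma cells and 2.59, 2.32, 3.39 and 3.78% of other cells. The exact intervals of the thinned plasma cell shares with Ebf1 were 13.8 to 38.3, 6.49 to 29.5, 9.54 to 17.3 and 12.3 to 18.9%. All overlapped, but with 53 and 45 cells in the first pair of libraries this does not show equal shares.

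Among plasma cells without Ms4a1, those led by IgM RNA (44 and 100 cells in the anti-LTβR and combination libraries) and by IgG RNA (165 and 286 cells) were compared as a description. Bach2 stood at 84.2 CPM (49.9 to 133) and 156 CPM (119 to 200) in IgM cells and at 34.1 (24.4 to 46.4) and 46.2 (34.5 to 60.6) in IgG cells. Prdm1 was likewise above in IgM cells, with 697 and 541 CPM against 511 and 395 CPM. Xbp1 was below, with 2348 and 2222 CPM against 3059 and 2719 CPM. These orders were the same in both libraries. The intervals cover counting error only, and no share of all genes that differ between IgM and IgG cells was computed. Ebf1 and Ikzf3 are not given for this split. Irf4 had no common order, at 1066 and 696 CPM in IgM cells against 888 and 777 CPM in IgG cells. Over all plasma cells, those with a UMI of the cycling genes Mki67 or Top2a had less Bach2 than the rest in each library, at 39.6, 22.3, 28.0 and 75.4 CPM against 91.3, 86.01, 109 and 96.7 CPM, with overlapping intervals in the untreated and combination libraries. This order did not hold without Ms4a1-bearing cells, a setting added after seeing the data, where Bach2 stood at 45.7, 30.3 and 83.1 CPM in cycling cells against 50.5, 54.1 and 67.9 CPM in the rest of the untreated, anti-LTβR and combination libraries, with overlapping intervals in all 3. The ADU-S100 library then had 18 cells without a cycling gene, too few for a value.

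Genes with the most similar pattern were ranked by the Pearson correlation of log2(CPM + 1) over 56 sums of a class within a library, which share libraries and depth, as a description. Among the 3 genes closest to Pax5 were Ms4a1 (r = 0.933) and Fcmr (0.918), of which Ms4a1 was part of the B cell rule. Spib was closest to Cyb561a3 (0.869), Havcr1 (0.858) and Siglecg (0.852), and Ebf1 to Sspn (0.884), Dennd5b (0.834) and a gene without a symbol (0.822). Xbp1 was closest to Slpi (0.865), Hspa5 (0.848), which encodes the endoplasmic reticulum chaperone BiP, and Gm11963 (0.841). Bach2 was closest to Macf1 (0.879), Evl (0.858) and Atm (0.851), and Ikzf3 to Gimap6 (0.946), Cd2 (0.935) and Cers4 (0.927), genes that are not confined to the B lineage. Prdm1 was closest to Mrpl54 (0.832), Ndufs6 (0.802) and Unc50 (0.791), and Irf4 to E330020D12Rik (0.802), Map4k1 (0.778) and Ccnd2 (0.777).

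The last question was whether the factors differed between treatments within plasma cells. A ratio was called when it was at least 1.5-fold and its 95% exact binomial interval excluded no change, and the background is the share of genes with at least 200 UMIs over both libraries that met this. With 1 library per group these calls compare libraries, and no p-value is given. For ADU-S100 against untreated, 13.9% of genes were called, and 1 of the 3 factors over the minimum, Irf4 at -0.72 on the log2 scale (-0.95 to -0.50). For anti-LTβR against untreated 8.33% were called, and 2 of 6 factors, Pax5 at 2.37 (1.45 to 3.68) and Ikzf3 at 1.39 (0.94 to 1.91). For the combination against untreated 6.83% were called, and 1 of 6 factors, Ikzf3 at 0.98 (0.52 to 1.51). For the combination against ADU-S100 15.1% were called, and 3 of 6 factors, Ebf1 at 0.80 (0.46 to 1.18), Bach2 at 0.74 (0.17 to 1.42) and Ikzf3 at 0.69 (0.27 to 1.15). For the combination against anti-LTβR 2.49% were called, and 1 of 7 factors, Pax5 at -1.52 (-1.95 to -1.13). These comparisons share libraries, so their values are not independent.

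Xbp1 and Prdm1 stayed close between the plasma cells of the 4 libraries, unlike Irf4, which was lower in ADU-S100 plasma cells. Xbp1 differed by 0.18 (0.06 to 0.30), 0.25 (0.15 to 0.34) and 0.20 (0.11 to 0.30) on the log2 scale in ADU-S100, anti-LTβR and combination plasma cells against untreated ones. Prdm1 differed by 0.18 (-0.10 to 0.45), 0.14 (-0.07 to 0.37) and -0.02 (-0.23 to 0.21). None of these Xbp1 and Prdm1 ratios reached 1.5-fold. Of the plasma cell program, with 19 to 23 genes over the minimum, at most 2 genes were called higher in any of the 5 comparisons and none lower. Of the B cell program, with 5 to 11 genes over the minimum, 2 were higher in anti-LTβR than in untreated plasma cells, 2 were higher in the combination than in ADU-S100, and 2 were lower in the combination than in anti-LTβR. Of the other B lineage factors, with 9 to 16 over the minimum, 2 were lower in ADU-S100 than in untreated, 1 was higher and 1 lower in the combination than in untreated, and 3 were higher and 1 lower in the combination than in ADU-S100. The background shares given for the 8 factors apply to these counts too.

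Nearly all Pax5 UMIs and all Spib UMIs of plasma cells lay in those with an Ms4a1 UMI. Without Ms4a1-bearing cells, a setting added after seeing the data, Pax5 had 0, 0, 0 and 7 UMIs, the 7 in 1 cell, and Spib none. The Pax5 ratios between treatments therefore rested on those cells. The Ikzf3 calls against untreated remained without these cells, since anti-LTβR stood at 1.26 (0.74 to 1.86) and the combination at 0.83 (0.31 to 1.44) against untreated, and at 1.31 and 1.08 under the stricter plasma cell rule. The Ikzf3 call in the combination against ADU-S100 did not, at 0.49 (0.04 to 0.99) without Ms4a1-bearing cells, and was at 0.82 (0.31 to 1.42) with the cell richest in Ikzf3 also left out of each library. Ikzf3 is also a T cell factor, and Cd3e was detected in 2 of 56, 0 of 45, 5 of 318 and 8 of 534 plasma cells. The part of T cell RNA in the Ikzf3 levels was not tested. Irf4 in ADU-S100 plasma cells stood at -0.83 (-1.09 to -0.57) without Ms4a1-bearing cells and at -0.72 under the stricter rule. Ebf1 in the combination against ADU-S100 was 0.52 without Ms4a1-bearing cells and -0.21 under the stricter rule, and 1 combination cell held 90 of 352 Ebf1 UMIs in the former, so its call did not hold. Bach2 in this comparison was 0.42 and 0.14. Against anti-LTβR, Ebf1 and Bach2 of combination plasma cells without Ms4a1 were at 0.88 (0.62 to 1.16) and 0.77 (0.33 to 1.23), past the call, and at 0.11 and 0.50 under the stricter rule. With the cell richest in the gene also left out of each library, Ebf1 was at 0.51 (0.23 to 0.81), so this call rested on that 1 combination cell, and Bach2 was at 0.76 (0.29 to 1.26).

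**Figure D5:**
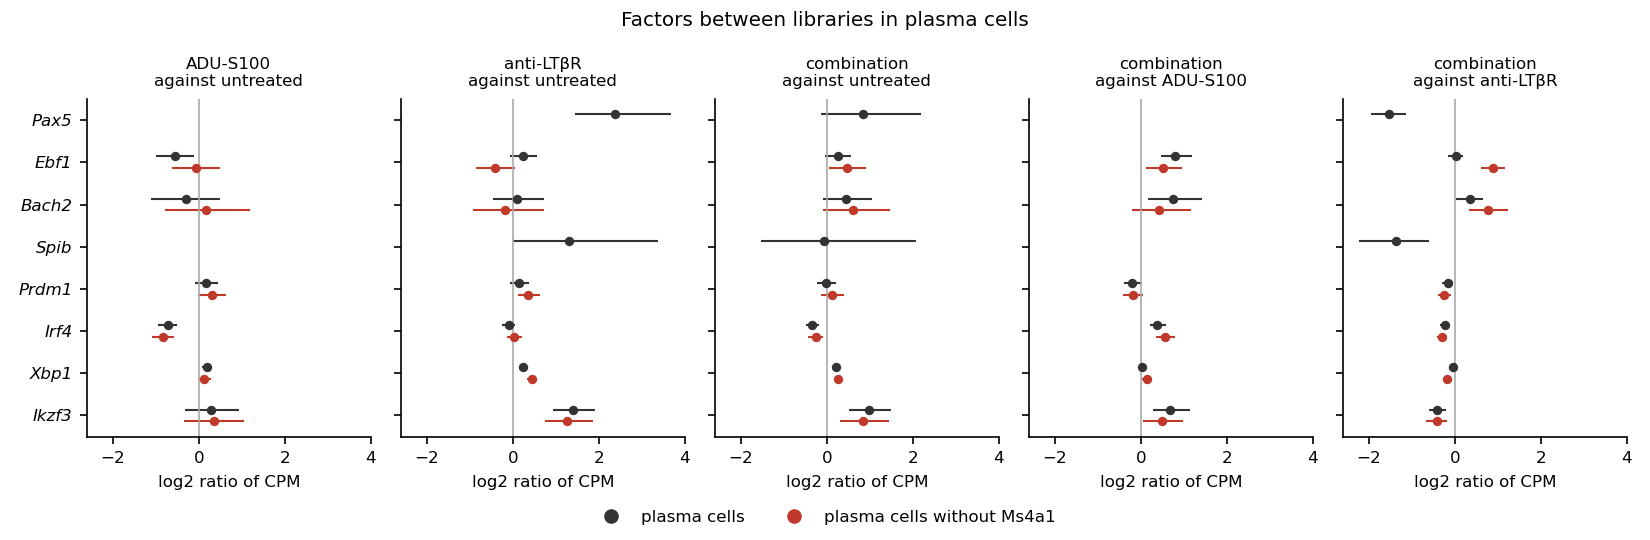
Log2 ratio of CPM between libraries for each factor in plasma cells, with 95% exact binomial intervals for counting error, for all plasma cells and for those without an Ms4a1 UMI. Ikzf3 lies above 0 for anti-LTβR and combination against untreated in both sets, Irf4 lies below 0 for ADU-S100 in both, and Pax5 and Spib have points only in the first set, since ratios with a library at 0 are not drawn.

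In B cells only the combination and anti-LTβR libraries could be compared. Of 356 genes over the minimum 6.18% were called, and none of the 4 factors that passed it. Pax5 differed by 0.22 (-0.06 to 0.50), Ebf1 by 0.10 (-0.07 to 0.27), Bach2 by 0.30 (0.05 to 0.54) and, under the minimum, Spib by 0.58 (0.06 to 1.11) on the log2 scale. The intervals leave room for differences of up to 0.50 in Pax5 and 0.27 in Ebf1.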

How the data were processed

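The authors deposited raw UMI counts per gene and cell, 1 matrix per library. The file headers give Cell Ranger 8.0.1, whereas the submitters' processing notes name version 7.1.0 and the build mm10. A GEM-X 5′ kit is given in the labels and an earlier one in the methods. Whether reads in introns were counted is not given in the sources used here.

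Cells with 300 to 5000 genes and at most 6% mitochondrial UMIs were kept, and the cells with the highest Scrublet scores (scanpy 1.11.5) were removed at 0.4% per 1000 deposited cells, because its own threshold marked 0, 0, 1 and 0 cells. Cells of other classes came from Leiden clusters (leidenalg 0.10.2, resolution 1, 2000 variable genes, 30 components, 20 neighbors) built without the 8 factors and named from marker lists. UMIs were summed per library and cell group without 390 immunoglobulin genes.

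Cell groups were compared over the 4 libraries with edgeR 4.0.16 (quasi-likelihood test, library as a term, Benjamini-Hochberg adjustment, called at adjusted p under 0.05). Each library is a pool of mice, so the libraries are separate samples. The p-values rest on a spread between libraries that edgeR pooled across genes, rather than on that of each gene alone. TMM factors were taken from the 500 most abundant genes, after a test on simulated data showed a shift with all genes, a change made after the files were seen. DESeq2 1.42.0 was an alternative. Treatment ratios had 0.5 UMI added to each sum and carry 95% exact binomial intervals, CPM exact Poisson intervals and shares exact Clopper-Pearson intervals, all for counting error only. A count of 0 is given with the limit that 3 counts allow. The members and lists were chosen with earlier results of these data known. The 8 factors are all reported. For plasma cells against B cells, the genes of each list called with the largest change in either direction, up to 3, are named. Against other cells only some of these are named. Some genes and alleles that these rules name are not reported here. Promoters came from RefSeq (GRCm38.p6), with entries for 7 of the 8 factors.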

Additional observations from a re-analysis of the deposited data

How the results depend on the processing

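Of 343 values of the 8 factors in the 3 cell-group tests under alternative settings, 339 kept their direction and their side of the threshold. Under the stricter plasma cell rule Spib had 0 UMIs in plasma cells, so its fitted log2 change against other cells (-8.95) measures neither size nor direction, and Pax5 was no longer tested. Ikzf3 between plasma and B cells was -1.19 without the combination library and -0.74 (adjusted p 0.0539, edgeR) with B cells taken by Ms4a1 alone, and Prdm1 between B and other cells was -1.68 without the combination library. The number of genes called between plasma and B cells, 1788, ran from 736 to 2045 when 1 library was left out, lowest without anti-LTβR, and was 2695 with the anti-LTβR and combination libraries alone, a setting chosen after seeing the data, and 1193 with DESeq2. Between B and other cells, 4134 genes became 1534 with DESeq2, 1437 with B cells taken by Ms4a1 alone, and 1518 to 3885 with 1 library left out, lowest without the combination. Between plasma and other cells, 8815 genes were 7227 to 8841 with 1 library left out. The cause of these shifts was not tested.

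Of 295 alternative treatment ratios 253 stayed inside the main counting interval. In plasma cells 13 of 40 were past the call, of which 5, in Pax5 and Spib, were under the minimum of 200 UMIs and have no background share. The other 8 were among 28 ratios over the minimum, against 2.49 to 15.1% of all genes. Past the call were 4 of 40 under the stricter rule, 6 without Ms4a1-bearing cells, and 6 with the cell richest in the gene also left out. These counts run over all 40 ratios, also those under the minimum, and no background share was computed for these settings. The sign changed for Ebf1 in the combination against ADU-S100 (-0.21, stricter rule). Pax5 in the combination against anti-LTβR rested on 4 against 0 UMIs under the stricter rule and on 7 against 0, all in 1 cell, without Ms4a1-bearing cells, so the computed 3.13 and 3.75 are set by the 0.5 UMI added and give no size or sign. In B cells 0 of 8 were past the call, and 1 of 8, Spib, with all deposited cells, with Ms4a1 alone or without the cell richest in the gene. Thinning brought co-detection in plasma cells from 62.5, 66.7, 46.5 and 38.4% to 24.5, 15.6, 13.1 and 15.4%. The 3 cell-group tests pair the groups by library, and without the library term they kept every direction of the 8 factors. For the treatment ratios no paired analysis was possible because each treatment group is 1 library. B cell values of the untreated and ADU-S100 libraries are limited by 3 cells each.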
